A study of Mus musculus with 6 samples.

Results

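Cadherins and integrins are the main families of receptors by which osteoblasts hold on to each other and to bone matrix. All genes named as a numbered cadherin (Cdh), integrin alpha (Itga) or integrin beta (Itgb) subunit were taken, each represented by its probe set with the highest mean among those annotated with a single gene symbol. This gave 49 genes of 19935 measured, 23 cadherins and 26 integrin subunits (18 alpha and 8 beta). Membership goes by symbol, but the families were picked with earlier results of these data known.

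Expression was read on single-colour Affymetrix arrays from osteoblastic cells of male mice, on 2 arrays from mice deficient in the neuropeptide Y receptor Y1 (Y1KO) and on 4 arrays from wild-type (WT) mice. Marrow stromal cells of femur and tibia were grown for 7 days in control medium without further treatment, and cells positive for green fluorescent protein were sorted. In both genotypes a 3.6-kb fragment of the rat alpha1(I)-collagen promoter drives the fluorescent protein, so the sort takes any cell in which that fragment is active. The labels do not name the strain, the age of the mice, the Y1 allele or the cells in which it was lost. The design text gives 4 beside the WT mice and 2 beside the Y1-deficient mice, the same as the numbers of arrays, without stating that each array is a separate animal.

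Classical cadherins bind the same cadherin on the next cell through calcium-dependent outer domains and are anchored to actin inside by beta-catenin, alpha-catenin and delta-catenin. Osteoblasts are known for N-cadherin (Cdh2) and cadherin-11 (Cdh11, first described as the osteoblast cadherin). Integrins work as pairs of 1 alpha and 1 beta subunit. The alpha chain largely sets the ligand, such as collagen, laminin or fibronectin, while talin and kindlin bind the beta tail and link it to actin. Itgb1 is the shared partner of most alpha chains, and Itgav pairs with several beta chains.

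The promoters of 4 genes are shown because their genes carry the largest differences in each direction (Itga9 and Cdh10) or lie side by side and moved in opposite directions (Itga1 and Itga2). Each is 300 bases from 250 before to 50 after a RefSeq gene start, on mouse build GRCm38.p6, written in the direction of transcription. Capitals mark matches on either strand to 5 motifs. The GC box was searched as GGGCGG and the TATA box was searched as TATAAA. The AP-1 site was searched as TGANTCA, where N is any base. The half-site of the cAMP response element was searched as TGACG, and the RUNX site was searched as TGTGGT. No marked match overlaps another.
Itga9, chr9:118711442-118711741, plus strand: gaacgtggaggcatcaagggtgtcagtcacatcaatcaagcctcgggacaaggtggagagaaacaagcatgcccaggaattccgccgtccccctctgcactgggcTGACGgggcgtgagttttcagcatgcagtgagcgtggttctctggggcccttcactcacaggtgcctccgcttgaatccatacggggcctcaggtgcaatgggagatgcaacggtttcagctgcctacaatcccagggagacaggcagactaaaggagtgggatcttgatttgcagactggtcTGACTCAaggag
Itga1, chr13:115101915-115102214, minus strand: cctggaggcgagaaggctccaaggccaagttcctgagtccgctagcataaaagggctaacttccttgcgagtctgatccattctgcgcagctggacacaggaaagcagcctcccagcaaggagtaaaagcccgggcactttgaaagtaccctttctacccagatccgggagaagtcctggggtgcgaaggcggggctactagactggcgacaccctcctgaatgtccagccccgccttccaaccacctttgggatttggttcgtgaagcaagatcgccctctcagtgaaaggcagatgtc
Itga2, chr13:114932051-114932350, minus strand: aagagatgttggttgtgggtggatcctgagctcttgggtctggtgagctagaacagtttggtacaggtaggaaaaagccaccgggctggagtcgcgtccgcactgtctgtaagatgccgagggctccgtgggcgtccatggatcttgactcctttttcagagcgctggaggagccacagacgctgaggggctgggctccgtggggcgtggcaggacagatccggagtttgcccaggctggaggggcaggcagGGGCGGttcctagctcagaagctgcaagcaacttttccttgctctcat
Cdh10, chr15:18820079-18820378, plus strand: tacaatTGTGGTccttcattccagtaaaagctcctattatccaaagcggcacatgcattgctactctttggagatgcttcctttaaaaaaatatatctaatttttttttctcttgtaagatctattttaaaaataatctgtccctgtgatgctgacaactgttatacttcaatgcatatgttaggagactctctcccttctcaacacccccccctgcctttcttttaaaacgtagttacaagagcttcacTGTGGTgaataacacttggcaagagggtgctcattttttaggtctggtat
The Itga9 window held an AP-1 match at base 289 and a cAMP half-site match at base 106. These motifs were found in 7.81% and 20.8% of the 32851 promoters of that length in the table. The Cdh10 window held RUNX matches at bases 7 and 251 (16.8% of promoters hold the motif), and that of Itga2 a GC box at base 253 (35.7%). The Itga1 window had none of the 5 motifs, and TATAAA, found in 13.6% of promoters, was in none of the 4 windows. The Cdh10 promoter was AT-rich, with 37.7% G and C against a median of 52.7% over all promoters, while the integrin promoters had 56.7% (Itga9 and Itga1) and 59.3% (Itga2). Of all members 31 matched the promoter table, and of the called ones Itga7 and Itgb3 did not. These letters are a description of the windows and were not set against expression.

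The arrays had medians between 5.3 and 5.37 on the log2 scale and correlated over all genes at 0.9961 between the Y1KO arrays, at 0.9911 to 0.9958 among WT arrays and at 0.9762 to 0.9875 across genotypes. The targeted gene, Npy1r, read 2.89 and 2.83 in Y1KO and 3.11, 2.84, 2.78 and 3.00 in WT, near the bottom of the range in both, and so does not check the genotype labels. All 7 measured osteoblast markers (Col1a1, Col1a2, Sp7, Alpl, Ibsp, Dmp1 and Phex) lay above the median of all genes. Their mean was 12 and 12.1 in the Y1KO arrays and 10.7 to 11.7 in the WT arrays, with WT replicate 2 the lowest and 0 of the 7 past the test. Markers of other cells differed too. The mean of 12 macrophage markers was 5.89 and 6.31 in Y1KO, against 5.35 to 5.58 in WT, and 9 of the 12 rose. Of 9 smooth muscle and pericyte markers, 6 fell and 1 rose, with means of 7.71 and 7.6 in Y1KO and 8.27 to 8.56 in WT. In the osteoclast (7 measured), granulocyte (6), lymphocyte (5), platelet and megakaryocyte (4), endothelial (8) and epithelial (5) lists 0 markers passed the test, and in the neural list 1 of 5 rose. In sorted cells measured in bulk, a change in the number of cells of a type and a change in RNA per cell cannot be told apart.

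Integrin subunits changed in both directions in Y1KO osteoblastic cells, while all cadherins but 1 failed the test. Of the 49 genes, 5 rose and 5 fell (limma, Benjamini-Hochberg adjusted p under 0.05 over all genes). That is 20.4% of them, against 12.7% of all genes tested, of which 6.1% rose and 6.64% fell. At 2-fold or more, 2 of the 49 rose and 3 fell, where 2.41% of all genes passed at that size, 0.948% higher and 1.46% lower. The integrins held 4 of the rises and 5 of the falls among 26 genes. The cadherins held 1 rise (Cdh10) and 0 falls among 23 genes. The families were not tested against each other, and the cadherins had lower signals. Over all arrays, 4 of 23 cadherins had a mean above the median of all genes, against 12 of 26 integrins. The largest changes were in Itga9, 6.89-fold lower, Itga1, 4.54-fold lower, Cdh10, 3.86-fold higher, Itga10, 2.55-fold higher, and Itgb3, 2.00-fold lower. The median difference over the 49 was -0.01 on the log2 scale and 0.01 over all genes. Calls were more frequent at higher signal: 7 of the 16 members with a mean above the median of all genes passed, where 21.8% of all such genes did, and 3 of the 33 at or below it, where 3.68% did. Values of the 2 genotypes did not overlap for 20 of the 49, against 34.8% of all genes (17.5% with Y1KO above and 17.3% with Y1KO below). The counts leaned on both Y1KO arrays: fewer members passed when either was left out, and fewer of all genes did too. When WT replicate 1 was left out, 3 rose and 4 fell, and so too for WT replicate 4. Without moderation of the variance 2 rose and 2 fell, and 344 of all genes passed, against 2541 in the main fit. Itga9, Itgb3 and Cdh10 kept their calls, Cdh22 gained a call, and the other 7 called genes lost theirs.

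**Figure D1:**
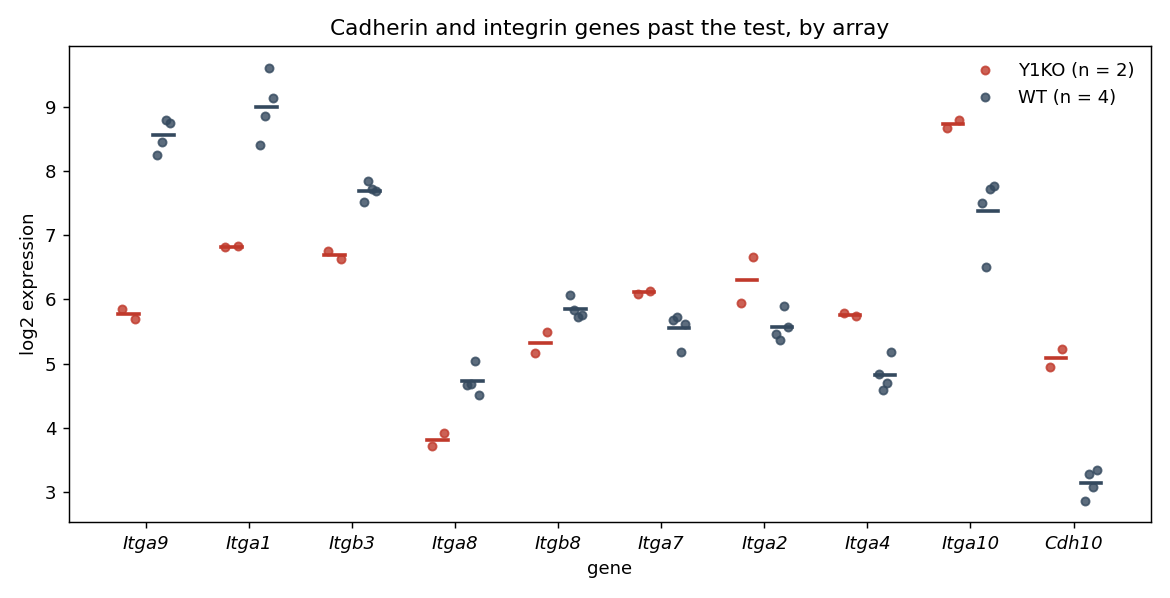
Log2 expression (y axis) of the 10 genes past the test (x axis), ordered by difference, with 1 point per array and a bar at the mean of each genotype (Y1KO, n = 2, left; WT, n = 4, right). In all 10 genes the Y1KO points lie beyond every WT point, by the widest margin in Itga9 on the left and Cdh10 on the right.

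Among the integrins that bind collagen, 1 fell, 2 rose and 1 did not pass. Itga1, whose product binds collagen IV and fibrillar collagens with Itgb1, read 6.82 and 6.82 in the Y1KO arrays, against 8.40, 8.85, 9.61 and 9.14 in the WT arrays. The Y1KO arrays were nearly equal and stood below every WT array. Itga1 thus differed by -2.18 (95% interval -2.79 to -1.57, SE 0.27, adjusted p = 0.00191 by limma), a call lost only without moderation (adjusted p = 0.0808). Itga10, known from cartilage as a collagen receptor, read 8.67 and 8.79 in Y1KO and 7.504, 6.51, 7.72 and 7.77 in WT. It was higher in both Y1KO arrays, with WT replicate 2 well under the other WT arrays. Itga10 differed by 1.35 (interval 0.65 to 2.06, SE 0.31, adjusted p = 0.023 by limma). It lost its call without Y1KO replicate 1 (1.41, adjusted p = 0.122) or Y1KO replicate 2 (1.30, 0.182), with trend and robust options (adjusted p = 0.0704) and without moderation (adjusted p = 0.2). The osteoblast marker mean was lowest in the same WT replicate 2, and its part in the Itga10 result was not tested.

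Itga2, a collagen and laminin receptor chain best known on platelets and epithelium, was spread between the Y1KO arrays. It read 5.95 and 6.65 in Y1KO and 5.47, 5.37, 5.90 and 5.56 in WT, so Y1KO replicate 1 lay just above WT replicate 3. The difference of 0.73 (SE 0.20, interval 0.27 to 1.19) passed narrowly, at a limma adjusted p of 0.0492. It was 0.38 (adjusted p = 0.413) without Y1KO replicate 2 and also failed without WT replicate 1 (0.69, adjusted p = 0.103), WT replicate 2 (0.66, 0.0799) or WT replicate 4 (0.72, 0.0989). Itga11, the osteoblast and fibroblast receptor for collagen I, was not past the test, at 9.65 and 9.68 in Y1KO and 9.81, 9.999, 9.31 and 9.69 in WT. The Y1KO values lay inside the WT range, with a difference of -0.04 (interval -0.42 to 0.34). It was 0.06 without WT replicate 2. Itga1 and Itga2 are neighbours on chromosome 13, with 0 protein-coding genes between them when genes are ordered by their lower coordinate. They were the only 2 neighbouring members that both passed the test. Pelo, which overlaps Itga1, differed by 0.07 (adjusted p = 0.795).

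The alpha chains encoded by Itga4 and Itga9 are close relatives, and the genes changed in opposite directions. Both pair with Itgb1 and bind Vcam1. The Itga9 chain also binds tenascin-C, VEGF-C and the matrix protein Svep1, and the Itga4 chain binds fibronectin. Itga9 read 5.86 and 5.69 in Y1KO, against 8.25, 8.45, 8.79 and 8.74 in WT. Both Y1KO arrays were more than 2 log2 units below the lowest WT array. Itga9 differed by -2.78 (interval -3.14 to -2.43, SE 0.15, adjusted p = 0.000103 by limma), and the call held in all 16 alternative settings, with differences from -2.89 to -2.58. Itga4 read 5.78 and 5.74 in Y1KO, against 4.84, 4.58, 4.70 and 5.18 in WT. Its difference of 0.94 (SE 0.15, interval 0.59 to 1.29, adjusted p = 0.0057) lost its call without Y1KO replicate 1 (0.92, adjusted p = 0.0579) or Y1KO replicate 2 (0.96, 0.0672). Cerkl, which overlaps Itga4, differed by -0.10 (adjusted p = 0.739). Itga4 is widely expressed by blood cells, and the macrophage marker mean was higher in the same Y1KO arrays, at 5.89 and 6.31 against 5.35 to 5.58. Itga4 was as high in Y1KO replicate 1 as in Y1KO replicate 2, and the part of macrophages in its rise was not tested.

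Among the chains that recognise the RGD tripeptide of fibronectin and vitronectin, Itga8 fell. Itga8, a receptor chain of mesenchyme and smooth muscle for the matrix protein nephronectin, read 3.72 and 3.92 in Y1KO and 4.66, 4.69, 5.04 and 4.51 in WT. It was lower in both Y1KO arrays, where its signal was at percentile 20.6 of all genes and a difference can be understated. Itga8 differed by -0.91 (interval -1.24 to -0.58, SE 0.14, adjusted p = 0.00497 by limma), and by -0.81 (adjusted p = 0.062) without Y1KO replicate 1. Itgav, the alpha chain of the vitronectin receptors, stood high in the range of the array at 10.04 and 10.11 in Y1KO and 10.51, 10.77, 10.17 and 10.55 in WT. Both Y1KO arrays lay below all WT arrays, but the difference of -0.42 (interval -0.77 to -0.08, adjusted p = 0.112) did not pass. Without WT replicate 3 it was -0.53 and passed (adjusted p = 0.0195). Itga5, the main fibronectin receptor chain, read 8.37 and 8.37 in Y1KO and 8.62, 9.19, 7.89 and 8.25 in WT. The WT arrays spread over more than 1 log2 unit around the Y1KO values. At that spread the difference of -0.12 (interval -0.79 to 0.55) was too small to be told from 0. It was 0.12 without WT replicate 2. The mean of the smooth muscle and pericyte markers was lower in the same Y1KO arrays, at 7.71 and 7.6 against 8.27 to 8.56. The list was mixed: 6 of the 9 fell and Cspg4 rose, while Des (higher) and Rgs5 (lower) did not pass. The part of these markers in the falls of Itga1, Itga8 and Itga9 was not tested.

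Of the laminin-binding alpha chains, Itga7 rose. Itga7, the laminin receptor chain of skeletal muscle, read 6.08 and 6.13 in Y1KO and 5.68, 5.73, 5.18 and 5.62 in WT. Its difference of 0.56 (SE 0.15, interval 0.21 to 0.90, limma adjusted p = 0.0452) was close to the threshold. It failed without Y1KO replicate 1 (0.58, adjusted p = 0.185), Y1KO replicate 2 (0.53, 0.264), WT replicate 1 (0.60, 0.0584) or WT replicate 4 (0.58, 0.0769). Mettl7b, which overlaps Itga7, differed by -0.01 (adjusted p = 0.977). Itga3 differed by -0.17 (interval -0.38 to 0.05), at 5.37 and 5.55 in Y1KO and 5.56, 5.74, 5.60 and 5.62 in WT. Itga6 read 4.13 and 4.26 in Y1KO and 3.89 to 4.69 in WT, in the lower part of the range in both genotypes.

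Of the 8 beta genes 2 fell and 6 did not pass. Itgb3, which joins Itgav in the vitronectin and osteopontin receptor of osteoclasts and mesenchymal cells, read 6.75 and 6.62 in Y1KO and 7.51, 7.84, 7.72 and 7.68 in WT. Y1KO arrays were lower throughout, and the difference of -1.0032 (SE 0.11, interval -1.25 to -0.75, limma adjusted p = 0.00116) held its call in all 16 settings. Of the 7 osteoclast markers 0 passed, and their mean was 5.31 and 5.33 in Y1KO, against 5.09 to 5.22 in WT. Itga2b, the platelet partner of Itgb3, read 5.24 and 5.26 in Y1KO and 5.22, 5.31, 5.03 and 5.24 in WT, a difference of 0.05 (interval -0.18 to 0.28) that was -0.0032 without WT replicate 3. Itgb8, which with Itgav binds and activates latent TGF-beta, read 5.16 and 5.50 in Y1KO and 6.06, 5.84, 5.73 and 5.76 in WT. It was lower in both Y1KO arrays by -0.52 (SE 0.13, interval -0.82 to -0.22, adjusted p = 0.0334). The call was lost without Y1KO replicate 1 (-0.35, adjusted p = 0.274), Y1KO replicate 2 (-0.69, 0.0667), WT replicate 1 (-0.45, 0.062) or WT replicate 4 (-0.55, 0.0544).

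Itgb1, the beta chain shared by most alpha chains, did not pass. It read 11.31 and 11.39 in Y1KO and 11.32, 11.46, 11.16 and 11.36 in WT, and both Y1KO values lay inside the WT range. Itgb1 differed by 0.02 (interval -0.21 to 0.26, SE 0.10, adjusted p = 0.926 by limma). The sign turned without Y1KO replicate 2 (-0.01) or WT replicate 3 (-0.03). Itgb5, another partner of Itgav, was at 10.05 and 10.01 in Y1KO and 10.32, 10.62, 10.13 and 10.09 in WT, a difference of -0.26 (interval -0.60 to 0.07) that did not pass. Itgb4 (5.54 and 5.56 in Y1KO, 5.21 to 5.67 in WT), Itgb6 (3.38 and 3.54 in Y1KO, 3.19 to 3.47 in WT) and Itgb7 (4.42 and 4.81 in Y1KO, 4.77 to 4.802 in WT) had low signals and did not pass. The 3 are known from epithelium and, for Itgb7, lymphocytes.

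The leukocyte integrins had low signals, and 0 of the 5 leukocyte alpha genes passed. Itgb2, the beta chain found on blood cells, read 4.93 and 5.34 in Y1KO and 4.82, 4.72, 4.85 and 4.59 in WT. Itgax, its partner on dendritic cells and macrophages, read 4.61 and 4.496 in Y1KO and 4.32, 4.06, 4.10 and 4.33 in WT. Both genes were above all WT arrays in both Y1KO arrays without passing, at 0.39 (interval 0.09 to 0.68, limma adjusted p = 0.0981) and 0.35 (interval 0.09 to 0.60, adjusted p = 0.0817). Itgam, the macrophage and granulocyte chain, read 4.05 and 4.30 in Y1KO and 4.42, 4.23, 3.91 and 4.14 in WT. Its difference of -0.0016 (interval -0.33 to 0.33) changed sign without Y1KO replicate 1 (0.12), WT replicate 1 (0.08) or WT replicate 2 (0.02). Itgal, the lymphocyte chain, read 4.74 and 4.51 in Y1KO and 4.65, 4.59, 4.77 and 4.78 in WT, a difference of -0.07 (interval -0.31 to 0.16), and 0.04 without Y1KO replicate 2. Itgad was at 4.97 and 4.78 in Y1KO and 4.96 to 5.20 in WT, and Itgae at 3.79 and 4.05 in Y1KO and 3.75 to 4.18 in WT. Of the 12 macrophage markers 9 rose in the same arrays, with a mean of 5.89 in Y1KO replicate 1 and 6.31 in Y1KO replicate 2. Itgb2 was likewise higher in Y1KO replicate 2, while Itgax was higher in Y1KO replicate 1, and the part of macrophages in either difference was not tested.

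**Figure D2:**
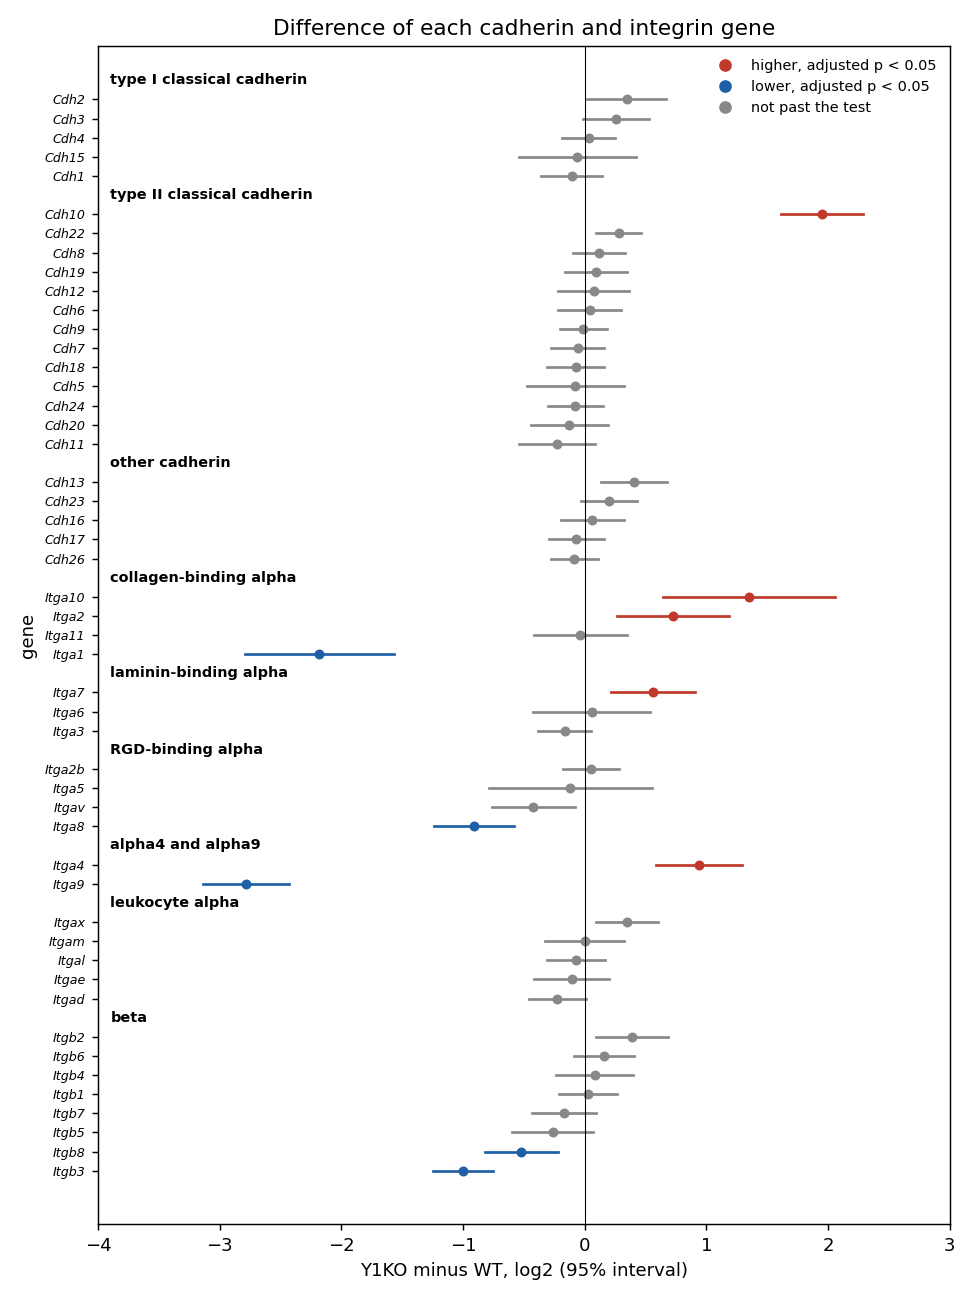
Difference of each of the 49 genes (x axis, log2 units, Y1KO minus WT, bars giving the limma model's 95% interval), grouped by class (y axis). Red genes rose, blue genes fell and grey genes did not pass. Of the 18 alpha chains 7 passed, and of the 23 cadherins 1 did (Cdh10, at 1.95).

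Cdh10 was the cadherin that rose. Its product is a type II classical cadherin known mainly from brain. It read 4.95 and 5.23 in Y1KO, against 2.87, 3.28, 3.08 and 3.34 in WT. The WT values were near the bottom of the array, at percentile 11.9 of all genes, and the Y1KO values reached percentile 42.0. Cdh10 differed by 1.95 (interval 1.61 to 2.28, SE 0.15, adjusted p = 0.000276 by limma), a size that the array may understate, and the call held in all 14 settings that tested it. Cdh10 lies on chromosome 15 next to Cdh9 and Cdh12, with Cdh6 and Cdh18 near them. Those neighbours were not past the test: Cdh9 read 2.46 and 2.48 in Y1KO and 2.43 to 2.56 in WT, and Cdh12 read 3.06 and 2.70 in Y1KO and 2.70 to 3.00 in WT. Cdh6 was at 5.11 and 5.37 in Y1KO and 5.04 to 5.33 in WT, and Cdh18 at 4.27 and 4.19 in Y1KO and 4.12 to 4.39 in WT. In the neural marker list the gene that rose was Tubb3, while the other 4 (Map2, Snap25, Syt1 and Rbfox3) did not pass.

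The cadherins that osteoblasts are known for did not pass. Cdh11 read 11.02 and 11.16 in Y1KO and 11.27, 11.04, 11.54 and 11.40 in WT, close to the top of the array in both genotypes. The groups overlapped, and Cdh11 differed by -0.23 (interval -0.54 to 0.09, SE 0.14, adjusted p = 0.385 by limma). Cdh2 read 10.51 and 10.54 in Y1KO and 10.24, 9.84, 10.28 and 10.37 in WT. Both Y1KO arrays were above all WT arrays, with WT replicate 2 the lowest, and Cdh2 differed by 0.34 (interval 0.02 to 0.67, SE 0.14, adjusted p = 0.179 by limma). Both genes kept these signs in all 16 alternative settings and passed in 0 of them.

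Of the other type I cadherins, Cdh3 (P-cadherin) read 5.10 and 4.83 in Y1KO and 4.76, 4.88, 4.58 and 4.63 in WT, a difference of 0.26 (interval -0.02 to 0.53). Cdh1, the epithelial cadherin, was at 4.55 and 4.63 in Y1KO and 4.59 to 4.91 in WT, and the muscle cadherin Cdh15 at 5.28 and 5.78 in Y1KO and 5.24 to 5.92 in WT. Cdh4 (retinal cadherin) was at 5.34 and 5.26 in Y1KO and 5.17 to 5.40 in WT. All 4 were below the median of all genes. Cdh5, the endothelial cadherin, read 4.71 and 4.58 in Y1KO and 4.62, 4.39, 5.10 and 4.78 in WT, a difference of -0.08 (interval -0.48 to 0.32). It was 0.05 without WT replicate 3, and 0 of 8 endothelial markers passed.

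The nearest to a call among the remaining cadherins, named after their values were seen, were Cdh13 and Cdh22. Cdh13 (T-cadherin), held to the membrane by a lipid anchor and without an inner tail, read 6.30 and 6.55 in Y1KO and 6.15, 6.01, 5.83 and 6.09 in WT. Cdh22 read 5.32 and 5.40 in Y1KO and 5.08, 5.07, 5.09 and 5.10 in WT. Both were higher in Y1KO throughout, by 0.40 (interval 0.13 to 0.67, limma adjusted p = 0.0597) and 0.28 (interval 0.09 to 0.47, adjusted p = 0.0579). Either gene passed with quantile normalization, with arrays centred on their medians and with genes under the 40th percentile left out. The other 9 cadherins, Cdh7, Cdh8, Cdh16, Cdh17, Cdh19, Cdh20, Cdh23, Cdh24 and Cdh26, had values between 2.06 and 5.87 on all arrays and did not pass.

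**Figure D3:**
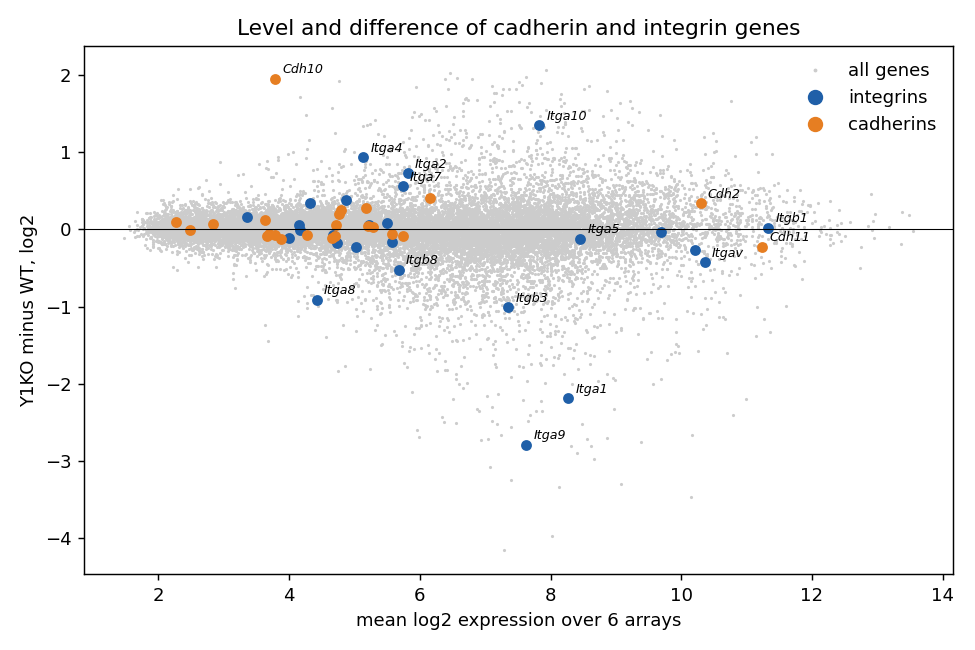
Mean log2 expression over the 6 arrays (x axis) against the Y1KO minus WT difference on the log2 scale (y axis), with 1 point per gene, integrins in blue, cadherins in orange and all 19935 genes in grey. The points of Cdh2, Cdh11 and Itgb1 lie on the right near 0, while Itga9 and Itga1 lie at -2.78 and -2.18 in the middle of the range.

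Genes for proteins that connect integrins to the cell interior were lower in Y1KO where they passed. Of 35 measured integrin adhesion proteins, 11 fell and 0 rose, with a median difference of -0.22, where 6.64% of all genes fell and the median of all genes was 0.01. Of the 35, 29 had a mean above the median of all genes, where 1139 of 9968 genes fell. Of the 9 smooth muscle and pericyte markers, 6 fell in the same arrays and Cspg4 rose. The mean of the list was 7.71 and 7.6 in Y1KO and 8.27 to 8.56 in WT. Those that fell included the actin-binding genes Tagln (-1.13) and Cnn1 (-1.67) and the actin Actg2 (-1.93). The part of these markers in the count of adhesion proteins that fell was not tested. Tns3, a tensin that binds beta tails, fell by 1.67, with 8.36 ± 0.08 (SD, n = 2) in Y1KO against 10.04 ± 0.11 (SD, n = 4) in WT, at a limma adjusted p of 0.000159. Tln2, a talin, fell by 1.49, Lims2, an adaptor that holds integrin-linked kinase, by 0.94 and the actin crosslinker Actn1 by 0.87. Named after their values were seen, the kindlin gene Fermt2 fell by 0.51, and Tln1, the common talin, was at -0.22 (adjusted p = 0.239). Actn1 lost its call without Y1KO replicate 2 (-0.81, adjusted p = 0.0863), and Fermt2 without Y1KO replicate 1 (-0.54, 0.0782) or Y1KO replicate 2 (-0.49, 0.125). Fewer than 11 fell when either Y1KO array was left out. Leaving out WT replicate 1, 2, 3 or 4 gave counts of 7, 10, 12 and 8, and no moderation gave 1.

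Of 16 catenin and plakophilin genes, 3 fell and 0 rose, with a median of -0.13. That is 18.8% called, against 12.7% of all genes and 21.8% of genes above the median signal, where 11 of the 16 lay, and so near the background. Pkp2, a plakophilin of desmosomes and other junctions, fell by 1.54 (SE 0.31, limma adjusted p = 0.0129), Ctnnbip1, an inhibitor of beta-catenin, by 0.43 and Ctnnd1, the catenin that holds cadherins at the surface, by 0.37. Ctnnb1, beta-catenin itself, was at 0.04 (interval -0.19 to 0.28) and Ctnna1, alpha-catenin, at -0.26 (interval -0.48 to -0.05, adjusted p = 0.117). The sign for Ctnnb1 turned without Y1KO replicate 2 (-0.04). The count of falls was 0 without either Y1KO array and without moderation, and 1 without WT replicate 4. Ctnnbip1 also failed without WT replicate 3 (-0.38, adjusted p = 0.057), and Ctnnd1 without WT replicate 1 (-0.39, adjusted p = 0.0799) or WT replicate 2 (-0.31, 0.0698).

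Of 39 measured integrin ligands, 15 fell and 2 rose, with a median of -0.31. That is 43.6% called, against 12.7% of all genes (6.64% lower and 6.1% higher) and 21.8% of genes above the median signal, where 34 of the 39 lay. Vegfc fell by 2.35 (SE 0.33, limma adjusted p = 0.00314), the basement membrane linker Nid1 fell by 1.99, Svep1 fell by 1.98 and the elastic fibre protein Fbln5 fell by 1.58. Some other ligands of the Itga9 chain, chosen after their values were seen, are given here and are not a full list. Of these, Tnc and Vcam1 fell by 0.63 and 0.89, and Emilin1 was at 0.36 (adjusted p = 0.0562). The collagen IV chains, Npnt and Fn1 were also chosen after their values were seen. Of the collagen IV chains, ligands of the Itga1 chain, Col4a1 fell by 1.40 and Col4a2 fell by 1.56. The fibrillar collagen genes Col1a1 (0.18), Col1a2 (0.23) and Col3a1 (-0.58) did not pass. Npnt, the nephronectin gene and ligand of the Itga8 chain, was at 0.93 (adjusted p = 0.0554), and passed at 0.68 (adjusted p = 0.00313) without WT replicate 2, while Fn1 was at -0.17 (adjusted p = 0.461). The 2 that rose were Postn, at 0.52, and Adam12, at 0.57. Without Y1KO replicate 2, 5 ligands fell, and without moderation 4 fell and 0 rose. Leaving out Y1KO replicate 1, 10 fell. Without either Y1KO array 0 rose, and 1 rose without WT replicate 1, WT replicate 3 or WT replicate 4. Adam12 did not pass without WT replicate 1 (0.60, adjusted p = 0.0526), and Postn without WT replicate 2 (0.55, 0.0529), WT replicate 3 (0.46, 0.0891) or WT replicate 4 (0.45, 0.0929). Vegfc (-2.30, adjusted p = 0.0527) and Tnc (-0.48, adjusted p = 0.0791) lost their calls without Y1KO replicate 2. Vcam1 lost its call without Y1KO replicate 1 (-1.16, adjusted p = 0.0572), Y1KO replicate 2 (-0.61, 0.312) or WT replicate 2 (-0.84, 0.0535).

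**Figure D4:**
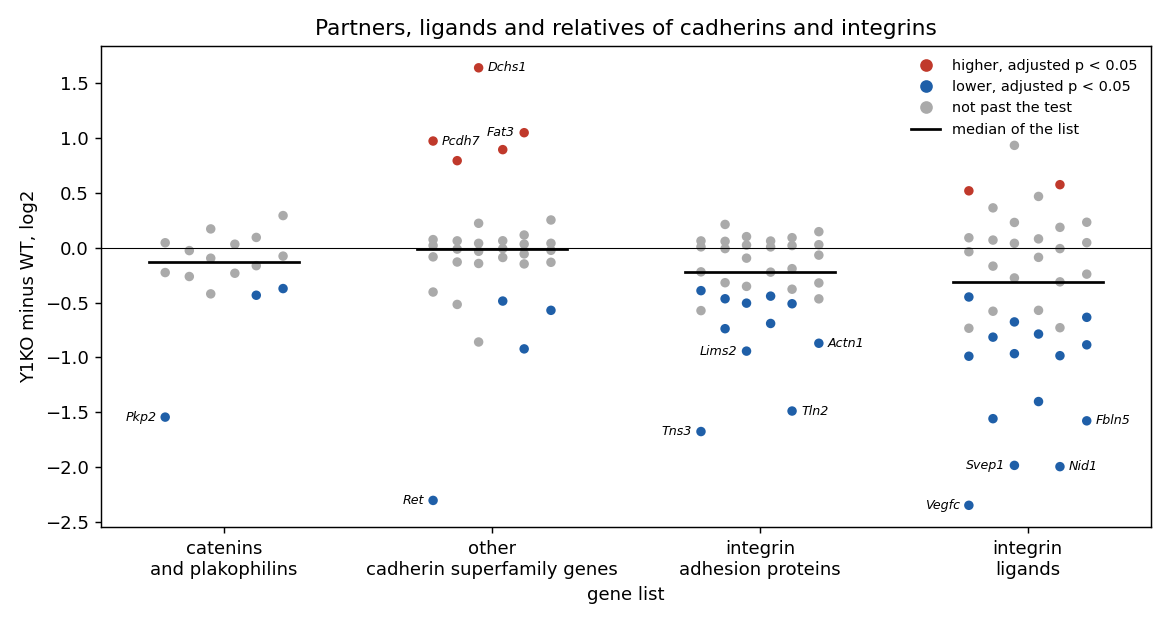
Y1KO minus WT difference on the log2 scale (y axis) of each gene in 4 lists (x axis), with a line at the median of each list. Red genes rose, blue genes fell and grey genes did not pass. The adhesion protein and ligand lists hold 11 and 15 falls, and the list of other cadherin superfamily genes has members far from 0 on both sides.

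Relatives of the cadherins outside the numbered genes changed in both directions. Of 33 measured other cadherin superfamily genes, 5 rose and 4 fell, with a median of -0.01. That is 27.3% called, against 12.7% of all genes (6.1% higher and 6.64% lower). The receptor tyrosine kinase gene Ret, whose product carries cadherin-like domains, fell by 2.30, with 5.57 ± 0.14 (SD, n = 2) in Y1KO against 7.88 ± 0.13 (SD, n = 4) in WT, at a limma adjusted p of 4.23e-05. Dchs1, a giant cadherin of planar polarity, rose by 1.64 (SE 0.19, adjusted p = 0.00155), Fat3 by 1.05 and the protocadherin Pcdh7 by 0.97. Fat3 had 15 probe sets, with differences from 1.05 to 1.58, and the mean of them gave 1.32. Named after their values were seen, Fat4, which binds Dchs1 across the cell contact, fell by 0.92, Clstn1 by 0.57 and Pcdh1 by 0.49, and Pcdh18 and Pcdh20 rose by 0.89 and 0.79. The counts of rises and falls were 3 and 1 without Y1KO replicate 1 and 2 and 1 without Y1KO replicate 2, and 2 fell without WT replicate 1. Without moderation 1 rose and 1 fell. Clstn1 and Pcdh1 lost their calls without either Y1KO array or WT replicate 1, and Pcdh1 also without WT replicate 4 (-0.46, adjusted p = 0.0758). Pcdh18 lost its call without either Y1KO array, and Pcdh20 without Y1KO replicate 2 (0.58, adjusted p = 0.173). Without Y1KO replicate 1, Fat3 was at 0.92 (adjusted p = 0.162) and Fat4 at -0.86 (adjusted p = 0.0721), and without Y1KO replicate 2 they were at 1.18 (adjusted p = 0.105) and -0.98 (adjusted p = 0.0658).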

How the data were processed

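Total RNA of sorted osteoblastic cells was hybridised to 6 arrays. The authors deposited log2 expression values for 28815 probe sets, for which the submitters' processing notes list RMA and limma without version or setting. These values were used unchanged. Precision is limited by the number of arrays (2 Y1KO, 4 WT).

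Probe sets were named from the repository's platform annotation: 21780 had 1 gene symbol, 1605 several and 5430 none. Of the first kind 21689 matched RefSeq (GRCm38.p6) by gene identifier, and 0 symbols changed. The probe set with the highest mean stood for each of 19935 genes. Of the members 3 had several probe sets (Cdh18, Cdh24 and Itgad), all uncalled.

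Y1KO was compared with WT by limma 3.58.1 in R 4.3.3 (lmFit, eBayes without trend or robust options, genotype only, two-sided), with Benjamini-Hochberg adjustment over all genes. Rose and fell mean an adjusted p under 0.05. Differences are Y1KO minus WT. The test was tried on simulated data. The design text's mouse numbers (2 Y1KO, 4 WT) equal the numbers of arrays, but no label states separate animals or cultures, so the p-values reflect array-to-array spread that may be partly technical.

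The members and lists were chosen with earlier results of these data known. Values in every sample are given for called members and for Cdh2, Cdh11, Itgb1, Itgav, Itga5, Cdh5, Itga2b, Itgb3, Itgam, Itgax, Itgal and Itgb2. From each partner list the called genes of largest difference, up to 4, are named. Others are given by level or were named outside this rule, in part marked in the text. The 16 alternatives were quantile normalization, median centring, filters at the 40th and 60th percentile, the mean of probe sets, all probe sets as units, trend and robust options, array weights, no moderation, the replicate number as a block and leaving out each array.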

Additional observations from a re-analysis of the deposited data

Results flagged for a closer look

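In WT, the gap between an extreme array and the nearest of the other 3 was checked against Dixon's 95% critical value. The 82 genes checked were every cadherin and integrin gene and every gene named from the partner lists. The cell type markers, Npy1r and the genes that overlap members were not checked. Chance flags about 1 in 20 such groups, and 4 were found. Cdh20 read 3.581 in WT replicate 3, against 4.014 to 4.034 in the other WT arrays. Vegfc read 8.624 in WT replicate 3, against 7.291 to 7.496. Npnt read 8.033 in WT replicate 2, against 8.989 to 9.102. Adam12 read 8.431 in WT replicate 2, against 8.831 to 8.893. The Y1KO group, with 2 arrays, was not checked.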

How the results depend on the processing

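Of the 49 genes, 5 rose and 5 fell in the fit as reported. With genes under the 60th percentile left out, 1 rose and 3 fell (cadherins 0 and integrins 1 higher, integrins 3 lower), and 6 of the called genes were no longer tested. With trend and robust options 3 rose (integrins 2), and without moderation 2 rose and 2 fell (cadherins 2 and integrins 0 higher, integrins 2 lower). Cadherins higher numbered 3 with quantile normalization, 3 with median-centred arrays, 2 with genes under the 40th percentile left out and 2 with array weights. Leaving out 1 array gave 1 to 5 members higher and 3 to 6 lower, with integrins 0 to 4 higher and 3 to 6 lower. The numbers 1 and 2 are shared by both genotypes. Deviations from the genotype mean correlated at 0.0127 and -0.204 between arrays of the same number. With 2 Y1KO arrays their deviations mirror each other, so these correlations cannot decide whether the numbers pair the arrays. With the replicate number as a block, the difference rests on replicates 1 and 2 of each genotype. WT replicates 3 and 4 have no Y1KO counterpart and do not enter it. In that fit 4 rose and 5 fell, Itgav passing (-0.564, adjusted p = 0.0281) and Itga7 and Itgb8 not. Signs turned under that block for Cdh5 (0.143), Itga2b (-0.0117), Itgal (0.00365) and Itgb1 (-0.0396), and with median-centred arrays for Itgam (0.0226), all uncalled. Leave-one-array-out ranges that crossed 0 were -0.19 to 0.0488 for Cdh5, -0.168 to 0.0607 for Itga11, -0.00318 to 0.0919 for Itga2b, -0.318 to 0.116 for Itga5, -0.184 to 0.0391 for Itgal, -0.125 to 0.122 for Itgam, -0.0311 to 0.0712 for Itgb1 and -0.0407 to 0.129 for Ctnnb1. The cause of these changes was not tested. Fits without 1 Y1KO array assume that the lone array varies like WT. Low signals, as for Cdh10 in WT and Itga8 in Y1KO, can compress a difference.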
